A study of Rattus norvegicus with 16 samples.

Results

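The genes described here are 47 genes of DNA replication, taken from origin licensing, the replication fork, the polymerases and nucleotide supply, and read in cells that adhered to titanium implants in rat tibiae. The rule that picks them is a list of names and uses no measured value, though the list was drawn up with earlier results of these data known. Of the 17245 genes the arrays measured under a single gene name, 45 were on this list, while Rrm1 and Tk1 had no row named for them alone. Replication starts where the origin recognition complex marks the DNA and where Cdc6 and Cdt1 load the ring of Mcm proteins on it. A kinase and a group of loading factors then turn that ring into a moving helicase, behind which polymerases, the sliding clamp and a ligase copy both strands from nucleotides made for the purpose. Most of these genes are known as targets of E2F transcription factors and peak as a cell enters S phase, so in a healing bone site their RNA is read as a sign of dividing cells.

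RNA came from 8 male Sprague Dawley rats, 4 for each day, and was read on Affymetrix Rat Gene 1.1 ST arrays. Each rat carried AT-I implants, whose surface has nanoscale features, in one tibia, and AT-II implants, which are microrough without such features, in the other. A sample pooled the adherent cells of 2 implants of a tibia, rinsed in PBS after retrieval. All rats had surgery, the same metal and a ketoprofen analgesic, and no tibia without an implant was among the samples. Each surface had 4 arrays at day 4 and 4 at day 2, which gives 4 groups and 16 arrays. Labels did not tie replicate numbers to rats, so tests between the surfaces ignored any pairing within a rat.

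Values were the deposited RMA values, taken as log2, and ran from 1.82 to 14.01 over all rows. All 45 genes had a mean of 6 or more over the samples. Replicates 2 and 3 of AT-II day 2 were the closest of 120 pairs of arrays, with an SD of the difference of 0.109 in the most variable bright rows, against at least 0.294 elsewhere. They were averaged, so AT-II day 2 had n = 3 and its values below are those of replicate 1, of replicates 2 and 3 together, and of replicate 4. The interquartile range of the arrays was 3.04 ± 0.349 in AT-I day 4 and 3.26 ± 0.164 in AT-II day 4 (SD, n = 4 each), and 2.67 ± 0.221 (SD, n = 4) in AT-I day 2 and 3.22 ± 0.181 (SD, n = 3) in AT-II day 2. Markers of osteoblasts, the bone-forming cells, were called higher at day 4 than at day 2 in 8 of 8 genes on AT-I and 7 of 8 on AT-II, while markers of skeletal muscle stayed low, with a summed level between 7.95 and 8.84 on the log2 scale in every sample.

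The promoters show what many of these genes share in sequence. RefSeq promoter windows of the GRCr8 build, running from 250 bases before to 50 after the annotated start, were given for 40 of the 47 genes. Orc1, Orc4, Cdc6, Mcm4, Gins4, Rpa3 and Rrm2 had none. An E2F motif, counted as TTTCCCGC, TTTCGCGC, TTTGCCGC or TTTGGCGC on either strand, stood in 19 of the 40 windows (47.5%), against 2.14% of all 33469 promoters and 3.12% of the 15593 promoters of measured genes. All 5 Mcm promoters given (Mcm2, Mcm3, Mcm5, Mcm6 and Mcm7) held one, as did both of Cdt1 and Gmnn, but only 2 of the 7 windows of helicase activation genes and 1 of the 6 of the clamp and its loader. CCAAT, the NF-Y motif, stood in 22 of 40 windows (55.0%), against 37.3% for measured genes. The cell cycle element TTTGAA or TTCGAA stood in 8 of 40 windows (20.0%), against 17.1% for measured genes. The window of 1 gene for each of 6 roles is printed below, with the E2F motif in capitals, to show where in a replication gene promoter the letters fall. Orc5 lies at chr4:13440083-13440382 on the plus strand, and its TTTCCCGC, read on the minus strand, begins 176 bases before the start. Pold3 lies at chr1:163868763-163869062 on the minus strand with TTTCCCGC 32 bases after the start. Tyms lies at chr9:120776034-120776333 on the minus strand with TTTGGCGC 37 bases before the start. Rfc3 lies at chr12:5836318-5836617 on the plus strand and holds TTTCGCGC 3 bases before the start and TTTCCCGC, on the opposite strand, 7 bases after it. Gins3 lies at chr19:9434630-9434929 on the minus strand with TTTCCCGC, on the opposite strand, 36 bases before the start. Rpa2 lies at chr5:150260522-150260821 on the plus strand with TTTGCCGC, on the opposite strand, 7 bases after the start. The distances count to the first base of the motif along the printed strand.
Orc5: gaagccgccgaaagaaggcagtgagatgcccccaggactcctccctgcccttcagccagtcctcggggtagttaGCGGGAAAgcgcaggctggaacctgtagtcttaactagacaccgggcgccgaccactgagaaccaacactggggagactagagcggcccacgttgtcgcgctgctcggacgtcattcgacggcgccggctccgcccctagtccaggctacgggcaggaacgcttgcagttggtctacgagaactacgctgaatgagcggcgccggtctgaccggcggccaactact
Pold3: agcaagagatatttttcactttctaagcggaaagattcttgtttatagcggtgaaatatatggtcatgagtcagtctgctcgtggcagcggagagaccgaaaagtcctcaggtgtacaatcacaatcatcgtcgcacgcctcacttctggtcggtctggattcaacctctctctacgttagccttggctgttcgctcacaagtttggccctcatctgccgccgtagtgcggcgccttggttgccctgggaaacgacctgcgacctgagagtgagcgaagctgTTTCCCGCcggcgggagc
Tyms: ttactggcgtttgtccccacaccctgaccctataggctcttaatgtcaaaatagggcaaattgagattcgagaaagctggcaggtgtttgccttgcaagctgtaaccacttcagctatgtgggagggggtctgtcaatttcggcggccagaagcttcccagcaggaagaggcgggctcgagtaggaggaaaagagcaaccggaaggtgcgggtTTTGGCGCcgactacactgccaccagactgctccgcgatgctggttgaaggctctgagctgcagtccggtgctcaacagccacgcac
Rfc3: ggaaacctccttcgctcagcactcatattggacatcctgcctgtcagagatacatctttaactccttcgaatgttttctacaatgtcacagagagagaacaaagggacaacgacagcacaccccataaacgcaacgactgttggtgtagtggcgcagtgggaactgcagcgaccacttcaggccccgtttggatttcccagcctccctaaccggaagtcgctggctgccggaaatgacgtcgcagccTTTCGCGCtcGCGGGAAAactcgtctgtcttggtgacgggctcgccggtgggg
Gins3: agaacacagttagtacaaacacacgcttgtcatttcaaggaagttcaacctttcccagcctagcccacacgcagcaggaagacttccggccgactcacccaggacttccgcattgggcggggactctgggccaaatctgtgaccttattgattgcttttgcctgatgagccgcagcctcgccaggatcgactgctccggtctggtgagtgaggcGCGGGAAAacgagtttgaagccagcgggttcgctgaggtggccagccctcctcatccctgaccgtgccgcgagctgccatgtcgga
Rpa2: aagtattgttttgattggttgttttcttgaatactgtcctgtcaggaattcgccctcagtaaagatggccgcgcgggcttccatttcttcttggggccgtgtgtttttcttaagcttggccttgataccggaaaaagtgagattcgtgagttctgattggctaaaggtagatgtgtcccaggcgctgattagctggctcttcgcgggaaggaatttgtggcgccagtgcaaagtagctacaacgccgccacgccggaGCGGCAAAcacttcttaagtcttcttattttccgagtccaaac
A match is a description of the letters in the window and not of binding.

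On AT-II implants, 43 of the 45 genes had lower mean values at day 4 than at day 2, against 59.7% of all genes and 56.2% of the 10459 genes of mean 6 or more. The median difference, day 4 minus day 2, was -0.46 on the log2 scale, against -0.05 over all genes, and differences ran from -0.65 for Mcm5 to 0.17 for Orc4. None of the 45 passed an adjusted p of 0.05 in limma, where 3.33% of all genes passed and 0.203% passed as lower. The smallest adjusted p was 0.0741 for Gins2, a subunit of the GINS complex of the helicase, followed by 0.0842 for Gmnn and 0.094 for Rpa2. At an unadjusted p under 0.05, 24 genes (53.3%) were lower, against 4.8% of all genes and 6.29% of genes of mean 6 or more. The values of AT-II day 4 and AT-II day 2 did not overlap, with day 4 lower, in 15 genes (33.3%), against 7.63% of all genes. These were Gmnn, Mcm2, Mcm3, Mcm5, Cdc7, Mcm10, Gins1, Gins2, Gins3, Pcna, Rfc2, Rfc5, Rpa1, Rpa2 and Fen1. The genes rise and fall together from sample to sample, as described below, so these counts do not stand for as many separate observations. In RNA of mixed adherent cells, fewer cells of a type and less RNA per cell cannot be told apart. With all 16 arrays counted separately, Gins2 (-0.50, adjusted p = 0.0205), Gmnn (-0.50, adjusted p = 0.0254) and Rpa2 (-0.56, adjusted p = 0.0339) passed as lower, where 0.632% of all genes did. Calls under other settings numbered 7 with each array centred on its median (0.818% of all genes passed as lower), 4 with quantile normalization repeated (0.319%), 2 with dim genes left out (0.526%), 1 with the AT-II groups alone in the fit (0.307%), 10 with array weights (1.79%) and 11 with the interquartile range of each array in the fit (0.893%). Leaving out AT-I day 2 replicate 2 gave 2 calls (0.22%) and leaving out AT-II day 2 replicate 4 gave 1 (0.238%), while leaving out any other sample gave 0. Over the 24 other settings that were run, the adjusted p ran from 0.0101 to 0.324 for Gins2, which passed in 9, from 0.0224 to 0.376 for Gmnn, which passed in 6, and from 0.0112 to 0.395 for Rpa2, which passed in 8.

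On AT-I implants, 35 of the 45 genes had lower mean values at day 4 than at day 2, against 55.2% of all genes and 37% of genes of mean 6 or more, and the median difference was -0.16, against -0.05 over all genes and 0.09 over genes of mean 6 or more. That median moved with single samples, being -0.03 without AT-I day 2 replicate 2 (25 genes lower) and -0.04 without AT-I day 4 replicate 3 (27 lower), but -0.24 without AT-I day 2 replicate 3 and -0.27 without AT-I day 4 replicate 2. It was -0.32 with each array centred, -0.31 with quantile normalization repeated and -0.45 with the interquartile range of each array in the fit. None passed the adjusted p in limma, where 11.5% of all genes did. At an unadjusted p under 0.05, Orc4 (0.46 ± 0.19, SE) was higher and Gins2 (-0.30 ± 0.12) and Rfc2 (-0.37 ± 0.16) were lower, which is 2.22% of the genes higher against 16% of all genes and 4.44% lower against 11.9%. The groups did not overlap in Gins2 alone among the 45, with day 4 lower, against 4.01% of all genes. Under other settings 5 genes passed as lower with each array centred (8.72% of all genes did), 3 with quantile normalization repeated (3.7%) and 8 with the interquartile range of each array in the fit (2.13%). The 10 genes with day 4 above day 2 by mean were Orc2, Orc3, Orc4 and Orc5 of origin recognition, and Pola1, Pold3, Rfc1, Rfc4, Rpa3 and Tyms.

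The difference between these time courses was tested directly. It was positive, meaning day 4 minus day 2 was higher on AT-I than on AT-II, in 43 of 45 genes, against 54.2% of all genes. The median of the 45 was 0.29, against 0.03 over all genes and 0.13 over genes of mean 6 or more. All 45 genes had such a mean, so 0.13 is the nearer comparison. The share of such genes that was positive is not given, so the count of 43 genes has no matched share beside it. None of the 45 and none of all genes passed the adjusted p in limma, and the smallest adjusted p of a replication gene was 0.924. The median was 0.15 with quantile normalization repeated (37 genes positive), 0.06 with the interquartile range of each array in the fit (30 positive), 0.14 without AT-I day 4 replicate 2 and 0.18 without AT-I day 2 replicate 3. At an unadjusted p under 0.05, Orc5 (0.37 ± 0.17, SE) and Rfc1 (0.42 ± 0.17) were higher, which is 4.44% of the genes, against 2.55% of all genes. The largest difference was 0.55 ± 0.34 (SE) for Cdc7, with a 95% interval of -0.18 to 1.29, and the smallest were -0.11 ± 0.33 for Pold1 and -0.11 ± 0.32 for Pold2. A different course on the surfaces was therefore not shown for any of these genes.

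**Figure D1:**
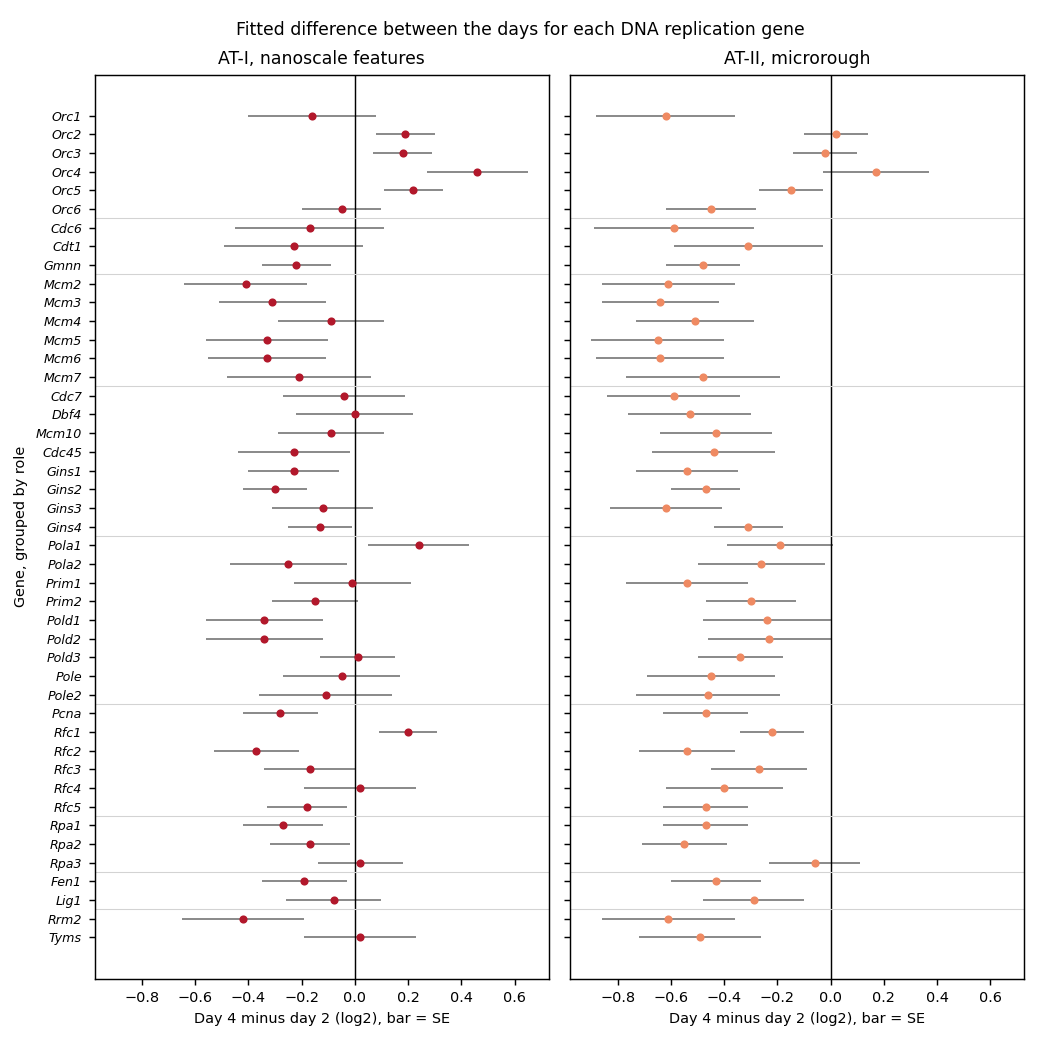
Fitted difference of each of the 45 DNA replication genes, day 4 minus day 2, on AT-I (left) and AT-II (right), in log2 units, with bars for the standard error and genes grouped by role. On AT-II 43 genes lie below 0 and on AT-I 35 do, and the origin recognition genes Orc2 to Orc5 lie at the high end on both.

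Between the surfaces at day 2, 44 of the 45 genes had lower means on AT-I than on AT-II, against 57.8% of all genes, and the exception was Rpa3 (0.15 ± 0.17, SE). The median difference, AT-I minus AT-II, was -0.30, against -0.09 over all genes and -0.24 over genes of mean 6 or more, of which 85.5% were lower on AT-I. None of the 45 passed the adjusted p in limma, where 0% of all genes did, and the smallest adjusted p was 0.128 for Orc5. At an unadjusted p under 0.05, 8 genes (17.8%) were lower, against 14.8% of all genes and 23.7% of genes of mean 6 or more. The groups did not overlap in Orc2, Orc5 and Rfc1 (6.67% of the genes), against 11.3% of all genes. Among genes of mean 6 or more, 18.1% did not overlap with AT-I lower, so both shares of the replication genes lay under those of such genes. AT-I day 2 was also the group with the narrowest spread of array values, and the median of the replication genes was -0.06 when quantile normalization was repeated and 0.10 when the interquartile range of each array entered the fit, with 33 and 11 of the 45 genes lower on AT-I in those settings. It was -0.16 with each array centred and -0.20 without AT-I day 2 replicate 3. Counted as 16 separate arrays, Orc2 (-0.35, adjusted p = 0.0473), Orc5 (-0.43, adjusted p = 0.04) and Rfc1 (-0.39, adjusted p = 0.0418) passed as lower, where 6.68% of all genes did. Over the 25 other settings, Orc2 passed in 3, and Orc5 and Rfc1 in 4 each, with adjusted p from 0.0367, 0.0233 and 0.0264, in the order Orc2, Orc5 and Rfc1, up to 0.996 for each. This comparison and the days on AT-II share the AT-II day 2 samples, so a high value there enters both.

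Between the surfaces at day 4, 23 genes had lower and 22 had higher means on AT-I than on AT-II, with a median of -0.00, while 58.2% of all genes and 76.6% of genes of mean 6 or more were lower. None passed the adjusted p in limma, where 0% of all genes did. None had an unadjusted p under 0.05, against 2.54% of all genes with AT-I higher and 1.44% with AT-I lower. The groups overlapped in all 45 genes, while 1.41% of all genes did not overlap with AT-I lower and 0.789% with AT-I higher. Differences ran from -0.26 ± 0.17 for Rfc3, with a 95% interval of -0.62 to 0.10, to 0.23 ± 0.16 for Rpa3, with an interval of -0.10 to 0.56. No interval among the 45 genes reached below -0.74 or above 0.61.

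**Figure D2:**
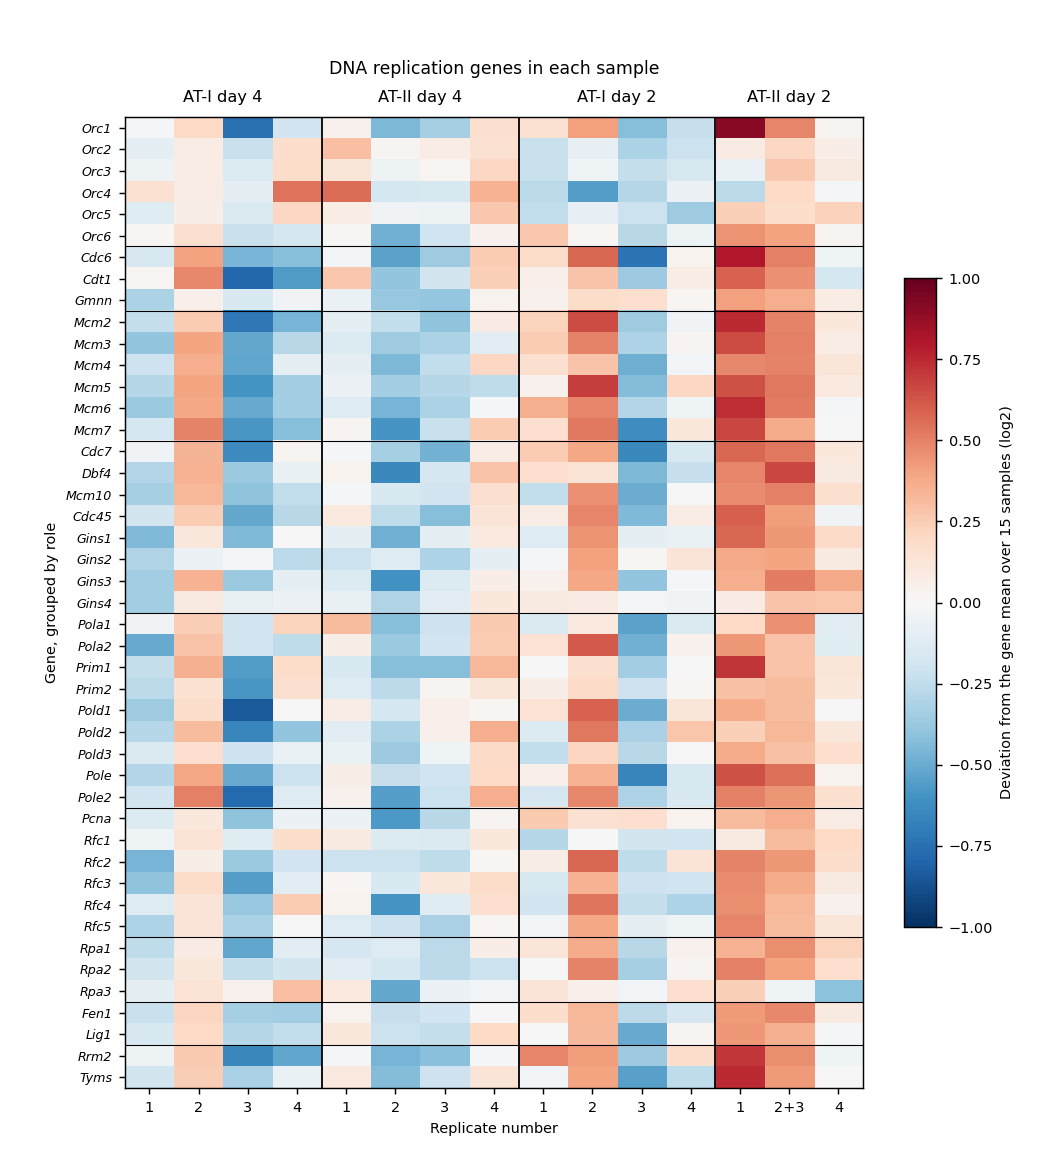
Deviation of each gene's deposited log2 value from its own mean over the 15 samples, by sample (columns, with both surfaces at day 4 left of both surfaces at day 2) and by gene (rows, grouped by role). Whole columns are red or blue together: AT-I day 4 replicate 2, AT-I day 2 replicate 2 and the first columns of AT-II day 2 are high, and AT-I day 4 replicate 3 and AT-I day 2 replicate 3 are low in most genes.

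The origin recognition complex, which marks where replication can start and is present through much of the cell cycle, held genes that were lower by mean at day 4 on AT-II and genes that lay near 0. Orc1, whose protein is known to be unstable outside G1 in human cells, differed by -0.62 ± 0.26 (SE) on AT-II and Orc6 by -0.45 ± 0.17, day 4 minus day 2, while Orc2 differed by 0.02, Orc3 by -0.02, Orc4 by 0.17 and Orc5 by -0.15. The adjusted p was 0.3 for Orc1 and 0.213 for Orc6. Orc5 measured 8.18, 8.36, 8.16 and 8.51 on AT-I and 8.38, 8.27, 8.25 and 8.57 on AT-II at day 4, and 8.06, 8.22, 8.09 and 7.95 on AT-I and 8.54, 8.48 and 8.53 on AT-II at day 2. At day 2 every AT-II sample lay above every AT-I sample, the AT-II samples within a range narrower than that of any other group. The day 2 difference was -0.44 ± 0.12 (SE, AT-I minus AT-II), with a 95% interval of -0.70 to -0.18. Orc2 measured 8.33, 8.50, 8.20 and 8.60 on AT-I and 8.73, 8.45, 8.50 and 8.58 on AT-II at day 4, and 8.20, 8.34, 8.11 and 8.21 on AT-I and 8.51, 8.63 and 8.49 on AT-II at day 2. Here too the day 2 samples of the surfaces did not overlap, while those of day 4 did, and the day 2 difference was -0.33 ± 0.12. Orc3 measured 8.40, 8.52, 8.31 and 8.63 on AT-I and 8.57, 8.40, 8.47 and 8.66 on AT-II at day 4, and 8.23, 8.41, 8.21 and 8.29 on AT-I and 8.38, 8.72 and 8.54 on AT-II at day 2. The highest AT-I sample of day 2 lay just above the lowest AT-II sample of that day, and the difference was -0.26 ± 0.12. Orc4 measured 8.18, 8.10, 7.94 and 8.57 on AT-I and 8.59, 7.85, 7.87 and 8.38 on AT-II at day 4, and 7.76, 7.48, 7.74 and 7.97 on AT-I and 7.76, 8.23 and 8.01 on AT-II at day 2. On AT-I the lowest day 4 sample lay just under the highest day 2 sample, and Orc4 had the highest difference between the days of the 45 genes on both surfaces. With array weights, Orc2, Orc3, Orc5 and Rfc1 passed between the surfaces at day 2 (adjusted p = 0.0367, 0.0476, 0.0233 and 0.0264 in that order), where 11.6% of all genes passed as lower.

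Among the licensing genes, Cdc6 and Cdt1 load the Mcm ring and Gmnn (geminin) blocks Cdt1 once S phase has begun. All 3 had lower means at day 4 on both surfaces, with a median of -0.48 on AT-II and -0.22 on AT-I. Gmnn measured 8.42, 8.79, 8.59 and 8.70 on AT-I and 8.67, 8.36, 8.35 and 8.77 on AT-II at day 4, and 8.78, 8.92, 8.91 and 8.76 on AT-I and 9.15, 9.10 and 8.81 on AT-II at day 2. On AT-II all day 4 samples lay below all day 2 samples, by a small gap, and the difference was -0.48 ± 0.14 (SE), with a 95% interval of -0.78 to -0.18. On AT-I the highest day 4 sample reached into the day 2 range, and the difference was -0.22 ± 0.13. Cdc6 measured 8.27, 8.83, 7.96 and 8.00 on AT-I and 8.40, 7.89, 8.07 and 8.68 on AT-II at day 4, and 8.61, 9.0, 7.69 and 8.46 on AT-I and 9.23, 8.93 and 8.38 on AT-II at day 2. Replicate 3 was lowest on AT-I at both days and the groups overlapped in every comparison. The differences of Cdc6 were -0.59 ± 0.30 between the days on AT-II and -0.41 ± 0.30 between the surfaces at day 2. Cdt1 measured 7.79, 8.25, 6.99 and 7.21 on AT-I and 8.04, 7.38, 7.59 and 8.01 on AT-II at day 4, and 7.82, 8.06, 7.41 and 7.85 on AT-I and 8.36, 8.23 and 7.60 on AT-II at day 2. The AT-I day 4 samples spread the widest of the 45 genes in that group, with an SD of 0.57, and the groups overlapped. The differences of Cdt1 were -0.31 ± 0.28 between the days on AT-II and -0.28 ± 0.28 between the surfaces at day 2.

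Mcm2 to Mcm7 form the ring that becomes the core of the replicative helicase. All 6 had lower means at day 4 on both surfaces, with a median difference of -0.62 on AT-II, where 5 of the 6 had an unadjusted p under 0.05, and of -0.32 on AT-I, where none did. The range was narrow for a group of 6 genes, from -0.65 for Mcm5 to -0.48 for Mcm7 on AT-II, and the smallest adjusted p was 0.171. Mcm3 measured 8.29, 9.08, 8.17 and 8.41 on AT-I and 8.55, 8.33, 8.37 and 8.58 on AT-II at day 4, and 8.94, 9.18, 8.38 and 8.71 on AT-I and 9.34, 9.19 and 8.76 on AT-II at day 2. On AT-II the day 4 samples all lay below the day 2 samples, with a difference of -0.64 ± 0.22 (SE), while on AT-I replicate 2 of day 4 lay above 3 of the day 2 samples. Mcm2 measured 9.42, 9.91, 8.94 and 9.19 on AT-I and 9.56, 9.41, 9.25 and 9.74 on AT-II at day 4, and 9.88, 10.31, 9.30 and 9.62 on AT-I and 10.40, 10.15 and 9.76 on AT-II at day 2. Day 4 was lower than day 2 in all AT-II samples by a margin of 0.02, the highest day 4 sample against the lowest day 2 sample, and the difference was -0.61 ± 0.25. Mcm4 measured 9.78, 10.35, 9.47 and 9.89 on AT-I and 9.90, 9.54, 9.74 and 10.19 on AT-II at day 4, and 10.15, 10.27, 9.50 and 9.96 on AT-I and 10.47, 10.48 and 10.11 on AT-II at day 2. The groups overlapped in every comparison, with differences of -0.51 ± 0.22 between the days on AT-II and -0.38 ± 0.22 between the surfaces at day 2. Mcm5 measured 8.44, 9.12, 8.13 and 8.39 on AT-I and 8.67, 8.39, 8.44 and 8.47 on AT-II at day 4, and 8.77, 9.42, 8.29 and 8.93 on AT-I and 9.36, 9.25 and 8.82 on AT-II at day 2. AT-II day 4 lay below AT-II day 2 in all samples, with a difference of -0.65 ± 0.25 and an adjusted p of 0.229 in limma. Mcm6 (-0.64 ± 0.24) and Mcm7 (-0.48 ± 0.29) had overlapping samples between those days.

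**Figure D3:**
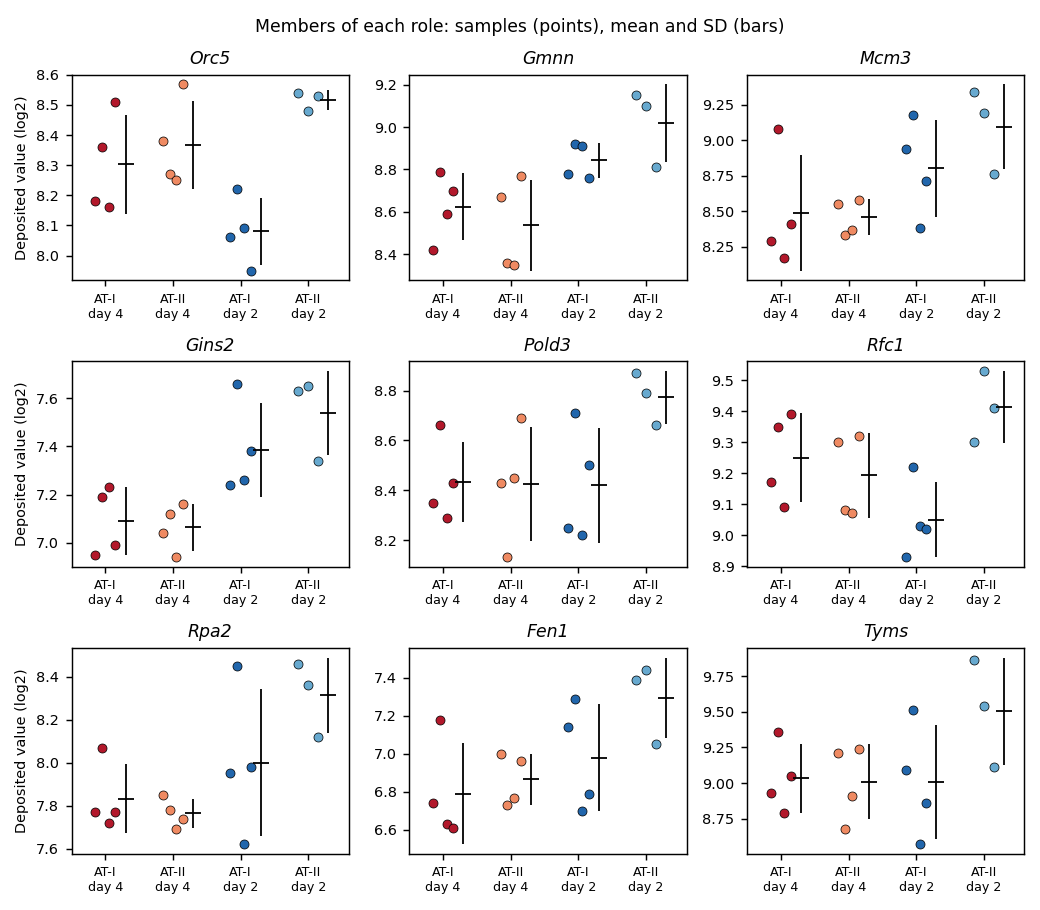
Deposited log2 values of a gene of each role in every sample (points), with the mean and SD of the group beside them (bars), with both surfaces at day 4 left of both surfaces at day 2; axes differ between panels and do not start at 0. In Gmnn, Mcm3, Gins2, Rpa2 and Fen1 the AT-II day 4 points lie under the AT-II day 2 points, and in Orc5 and Rfc1 the AT-I day 2 points lie under the AT-II day 2 points.

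The genes that activate the helicase are the kinase Cdc7 with its partner Dbf4, the loading factor Mcm10, and Cdc45 and the 4 GINS subunits, which join the Mcm ring. All 8 were lower by mean at day 4 on AT-II, with a median of -0.50, and 6 had an unadjusted p under 0.05. Gins2 measured 6.95, 7.19, 7.23 and 6.99 on AT-I and 7.04, 7.12, 6.94 and 7.16 on AT-II at day 4, and 7.24, 7.66, 7.26 and 7.38 on AT-I and 7.63, 7.65 and 7.34 on AT-II at day 2. Gins2 was the one gene of the 45 whose day 4 samples lay below its day 2 samples on both surfaces. The difference was -0.47 ± 0.13 (SE) on AT-II, with a 95% interval of -0.76 to -0.19, and -0.30 ± 0.12 on AT-I, with an interval of -0.56 to -0.03. Gins3 measured 6.69, 7.38, 6.66 and 6.94 on AT-I and 6.90, 6.43, 6.90 and 7.10 on AT-II at day 4, and 7.08, 7.42, 6.64 and 7.02 on AT-I and 7.40, 7.55 and 7.41 on AT-II at day 2. AT-II day 2 was within a range of 0.15 and lay above all AT-II day 4 samples, with a difference of -0.62 ± 0.21. Dbf4 measured 7.41, 8.05, 7.33 and 7.63 on AT-I and 7.74, 7.06, 7.53 and 7.99 on AT-II at day 4, and 7.87, 7.84, 7.25 and 7.47 on AT-I and 8.19, 8.37 and 7.79 on AT-II at day 2. The samples overlapped in every comparison, with differences of -0.51 ± 0.23 between the surfaces at day 2 and -0.53 ± 0.23 between the days on AT-II. Mcm10 measured 7.55, 8.21, 7.48 and 7.63 on AT-I and 7.86, 7.73, 7.69 and 8.04 on AT-II at day 4, and 7.63, 8.34, 7.38 and 7.88 on AT-I and 8.35, 8.38 and 8.04 on AT-II at day 2. On AT-II the highest day 4 sample equalled the lowest day 2 sample to 2 decimals, and the difference was -0.43 ± 0.21. Cdc7 measured 7.19, 7.56, 6.59 and 7.25 on AT-I and 7.21, 6.89, 6.75 and 7.30 on AT-II at day 4, and 7.48, 7.61, 6.58 and 7.06 on AT-I and 7.80, 7.75 and 7.33 on AT-II at day 2. AT-II day 4 lay below AT-II day 2 in all samples, with a difference of -0.59 ± 0.25, while on AT-I the difference was -0.04 ± 0.23. Gins1 (-0.54 ± 0.19), Gins4 (-0.31 ± 0.13) and Cdc45 (-0.44 ± 0.23) had the same sign on AT-II.

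The polymerases were Pola1 and Pola2 with the primase genes Prim1 and Prim2, which start each strand, Pold1 to Pold3 of polymerase delta, which extends the lagging strand, and Pole and Pole2 of polymerase epsilon, which copies the leading strand. All 9 had lower means at day 4 on AT-II and the median was -0.30, nearer to 0 than in the Mcm group. Only Prim1 (-0.54 ± 0.23, SE) and Pold3 (-0.34 ± 0.16) had an unadjusted p under 0.05, and no groups of AT-II samples separated. Pold3 measured 8.35, 8.66, 8.29 and 8.43 on AT-I and 8.43, 8.13, 8.45 and 8.69 on AT-II at day 4, and 8.25, 8.71, 8.22 and 8.50 on AT-I and 8.87, 8.79 and 8.66 on AT-II at day 2. At day 2 AT-I replicate 2 lay within the AT-II range and the other AT-I samples below it, with a difference of -0.35 ± 0.16. Pole measured 7.38, 8.06, 7.17 and 7.46 on AT-I and 7.73, 7.44, 7.47 and 7.87 on AT-II at day 4, and 7.72, 8.02, 7.01 and 7.51 on AT-I and 8.31, 8.22 and 7.71 on AT-II at day 2. At day 2, 2 AT-I samples of Pole fell within the AT-II range and the other 2 below it, and the difference was -0.51 ± 0.24. Prim1 measured 8.95, 9.54, 8.63 and 9.37 on AT-I and 9.03, 8.76, 8.76 and 9.52 on AT-II at day 4, and 9.18, 9.35, 8.84 and 9.18 on AT-I and 9.90, 9.47 and 9.31 on AT-II at day 2. AT-II day 2 replicate 1 was the highest of all samples, and the day 2 difference between the surfaces was -0.42 ± 0.23. Pold1 and Pold2 differed between the days by -0.34 ± 0.22 and -0.34 ± 0.22 on AT-I, and by -0.24 ± 0.24 and -0.23 ± 0.23 on AT-II, farther from 0 on AT-I, though the adjusted p of the difference between the courses was 0.971 and 0.97. Pold1 measured 7.36, 7.89, 6.88 and 7.72 on AT-I and 7.79, 7.54, 7.77 and 7.74 on AT-II at day 4, and 7.86, 8.31, 7.22 and 7.84 on AT-I and 8.09, 8.03 and 7.72 on AT-II at day 2. AT-I day 4 replicate 3 was the lowest sample. Pold2 measured 8.08, 8.68, 7.71 and 7.97 on AT-I and 8.26, 8.05, 8.42 and 8.73 on AT-II at day 4, and 8.23, 8.89, 8.04 and 8.64 on AT-I and 8.60, 8.70 and 8.48 on AT-II at day 2. The groups overlapped in Pold1 and Pold2 in every comparison.

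Pcna is the clamp that holds polymerases on DNA, and Rfc1 to Rfc5 form the loader that opens it. All 6 had lower means at day 4 on AT-II, with a median of -0.44, and Pcna, Rfc2 and Rfc5 had separated samples there. Pcna measured 10.73, 10.97, 10.46 and 10.81 on AT-I and 10.81, 10.29, 10.59 and 10.89 on AT-II at day 4, and 11.13, 11.02, 11.03 and 10.90 on AT-I and 11.18, 11.23 and 10.94 on AT-II at day 2. All 4 AT-II day 4 samples lay below the 3 of AT-II day 2, and the difference was -0.47 ± 0.16 (SE), with an adjusted p of 0.146 in limma. Rfc1 measured 9.17, 9.35, 9.09 and 9.39 on AT-I and 9.30, 9.08, 9.07 and 9.32 on AT-II at day 4, and 8.93, 9.22, 9.03 and 9.02 on AT-I and 9.30, 9.53 and 9.41 on AT-II at day 2. At day 2 all AT-I samples lay below all AT-II samples, with a difference of -0.36 ± 0.12 and a 95% interval of -0.62 to -0.10, and on AT-I the mean was higher at day 4 than at day 2 by 0.20 ± 0.11. Rfc3 measured 6.91, 7.49, 6.76 and 7.20 on AT-I and 7.33, 7.16, 7.42 and 7.49 on AT-II at day 4, and 7.15, 7.66, 7.10 and 7.11 on AT-I and 7.78, 7.68 and 7.40 on AT-II at day 2. The samples overlapped, and AT-I day 2 replicate 2 stood 0.51 above the next sample of its group. Rfc5 measured 7.65, 8.09, 7.64 and 7.96 on AT-I and 7.83, 7.75, 7.64 and 7.98 on AT-II at day 4, and 7.93, 8.35, 7.86 and 7.92 on AT-I and 8.45, 8.28 and 8.08 on AT-II at day 2. AT-II day 4 lay below AT-II day 2 in all samples, with a difference of -0.47 ± 0.16. Rfc2 differed by -0.54 ± 0.18 on AT-II and -0.37 ± 0.16 on AT-I, and Rfc4 by -0.40 ± 0.22 on AT-II and 0.02 ± 0.21 on AT-I.

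Rpa1, Rpa2 and Rpa3 encode the protein that coats single-stranded DNA at the fork. Rpa1 and Rpa2 were lower at day 4 by mean on both surfaces, and Rpa3 lay near 0 on both. Rpa2 measured 7.77, 8.07, 7.72 and 7.77 on AT-I and 7.85, 7.78, 7.69 and 7.74 on AT-II at day 4, and 7.95, 8.45, 7.62 and 7.98 on AT-I and 8.46, 8.36 and 8.12 on AT-II at day 2. On AT-II the day 4 samples fell in a range of 0.16 under all day 2 samples, with a difference of -0.55 ± 0.16 (SE) and a 95% interval of -0.90 to -0.20. Rpa1 measured 8.74, 9.08, 8.48 and 8.88 on AT-I and 8.83, 8.87, 8.73 and 9.06 on AT-II at day 4, and 9.12, 9.37, 8.72 and 9.04 on AT-I and 9.34, 9.46 and 9.22 on AT-II at day 2. The AT-II samples of the days again did not overlap, with a difference of -0.47 ± 0.16. Rpa3 measured 9.08, 9.31, 9.21 and 9.47 on AT-I and 9.27, 8.66, 9.11 and 9.14 on AT-II at day 4, and 9.30, 9.22, 9.14 and 9.34 on AT-I and 9.41, 9.13 and 8.76 on AT-II at day 2. The groups overlapped, the mean was higher on AT-I at both days, by 0.15 ± 0.17 at day 2 and 0.23 ± 0.16 at day 4, and the days differed by -0.06 ± 0.17 on AT-II.

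Fen1 trims flaps from the lagging strand and Lig1 seals it. Fen1 measured 6.74, 7.18, 6.63 and 6.61 on AT-I and 7.00, 6.73, 6.77 and 6.96 on AT-II at day 4, and 7.14, 7.29, 6.70 and 6.79 on AT-I and 7.39, 7.44 and 7.05 on AT-II at day 2. AT-II day 4 lay below AT-II day 2 in all samples, with a difference of -0.43 ± 0.17 (SE, adjusted p = 0.276 in limma). Lig1 measured 8.40, 8.75, 8.27 and 8.31 on AT-I and 8.67, 8.34, 8.32 and 8.75 on AT-II at day 4, and 8.56, 8.88, 8.05 and 8.58 on AT-I and 8.99, 8.91 and 8.54 on AT-II at day 2. The groups of Lig1 overlapped, with a difference of -0.29 ± 0.19 between the days on AT-II. Rrm2, a subunit of ribonucleotide reductase, and Tyms, thymidylate synthase, supply deoxynucleotides. Rrm2 measured 10.54, 10.85, 9.95 and 10.07 on AT-I and 10.58, 10.13, 10.17 and 10.58 on AT-II at day 4, and 11.08, 11.01, 10.23 and 10.77 on AT-I and 11.30, 11.06 and 10.55 on AT-II at day 2. AT-II day 2 replicate 1 was the highest of all samples and AT-I day 4 replicate 3 the lowest, and the days differed by -0.61 ± 0.25 on AT-II and -0.42 ± 0.23 on AT-I. Tyms measured 8.93, 9.36, 8.79 and 9.05 on AT-I and 9.21, 8.68, 8.91 and 9.24 on AT-II at day 4, and 9.09, 9.51, 8.57 and 8.86 on AT-I and 9.86, 9.54 and 9.11 on AT-II at day 2. Tyms differed by -0.49 ± 0.23 between the days on AT-II and by 0.02 ± 0.21 on AT-I, and by -0.49 ± 0.23 between the surfaces at day 2, with overlapping samples in each.

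Within groups the genes moved as a block. In AT-I day 4, replicate 2 was the highest of the group in 36 of the 45 genes and replicate 3 the lowest in 37. In AT-II day 4, replicate 4 was highest in 35 and replicate 2 lowest in 31. In AT-I day 2, replicate 2 was highest in 38 and replicate 3 lowest in 36, and in AT-II day 2 replicate 1 was highest in 29 and replicate 4 lowest in 39. Among genes of mean 6 or more, AT-I day 4 replicate 2 was highest in 49.2% and replicate 3 lowest in 55.6%. AT-I day 2 replicate 2 was highest in 42.8% of them and replicate 3 lowest in 36.3%. AT-II day 4 replicate 4 was highest in 34.9% and replicate 2 lowest in 35.5%. Part of that order was thus common to other genes, whereas AT-II day 2 replicate 1 was highest in 23.6% and lowest in 54.6% of them. The sample highest in most replication genes had the widest interquartile range of its group, except in AT-II day 2, where it had the narrowest. The part of array spread in this order was not tested. The median SD of a replication gene was 0.32 in AT-I day 4, 0.23 in AT-II day 4, 0.32 in AT-I day 2 and 0.21 in AT-II day 2, against 0.21, 0.16, 0.24 and 0.18 in genes of mean 6 or more, in the same order of groups. The mean over the 45 genes was 8.20 ± 0.26 in AT-I day 4, 8.22 ± 0.20 in AT-II day 4 and 8.32 ± 0.26 in AT-I day 2 (SD, n = 4 each), and 8.62 ± 0.20 in AT-II day 2 (SD, n = 3). It ran from 7.92 to 8.55 in AT-I day 4, from 7.99 to 8.44 in AT-II day 4, from 8.00 to 8.64 in AT-I day 2 and from 8.39 to 8.77 in AT-II day 2. The ranges of all 4 groups overlapped, the lowest AT-II day 2 sample lying under the highest of each other group.

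Markers of marrow precursors were lower by mean at day 4 than at day 2, as most replication genes were. Between the surfaces at day 2, 3 of 8 granulocyte precursor markers and 5 of 8 erythroid precursor markers were lower on AT-I. The lower means at day 4 were not particular to precursors. Neutrophil markers were lower in 6 of 8 on AT-I (median -0.36, 1 called) and 7 of 8 on AT-II (median -0.24, none called). Megakaryocyte markers were lower in 3 of 4 on AT-I (median -0.34) and 4 of 4 on AT-II (median -0.41), with none called. Granulocyte precursor markers (8 of 8 measured, Mpo and Elane among them) were lower at day 4 in 8 of 8 by mean on both surfaces, with a median of -0.60 on AT-I and -0.66 on AT-II, and none was called. Their summed level on the log2 scale ran from 12.59 to 13.84 in AT-I day 4, from 12.75 to 13.35 in AT-II day 4, from 13.13 to 14.11 in AT-I day 2 and from 13.12 to 14.25 in AT-II day 2. Between the surfaces at day 2, 3 of the 8 were lower on AT-I, with a median of 0.02, and at day 4, 2 of the 8 were, with a median of 0.16. Erythroid precursor markers (8 of 10 measured) were also lower in 8 of 8 by mean, with a median of -0.23 on AT-I and -0.42 on AT-II, and none was called. Their summed level ran from 14.27 to 14.83 in AT-I day 4, from 14.09 to 14.70 in AT-II day 4, from 14.45 to 14.96 in AT-I day 2 and from 14.50 to 15.01 in AT-II day 2. Between the surfaces, 5 of those 8 were lower on AT-I at day 2, with a median of -0.21, and 4 of the 8 at day 4, with a median of -0.00. None of these precursor markers passed the adjusted p in limma in any of these comparisons. The sample with the highest mean of the 45 genes was also the one with the highest granulocyte precursor sum in each of the 4 groups. The lowest samples differed at day 4. They were replicate 3 for the 45 genes and replicate 4 for the sum on AT-I. On AT-II they were replicate 2 and replicate 3 in that order. The erythroid precursor sum was lowest in the sample with the lowest mean of the 45 genes in each of the 4 groups. It was also highest in the sample with the highest mean, tied to 2 decimals with replicate 1 in AT-II day 4. The part of any of these cell types in the differences of the replication genes was not tested. On this scale no marker is at 0.

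**Figure D4:**
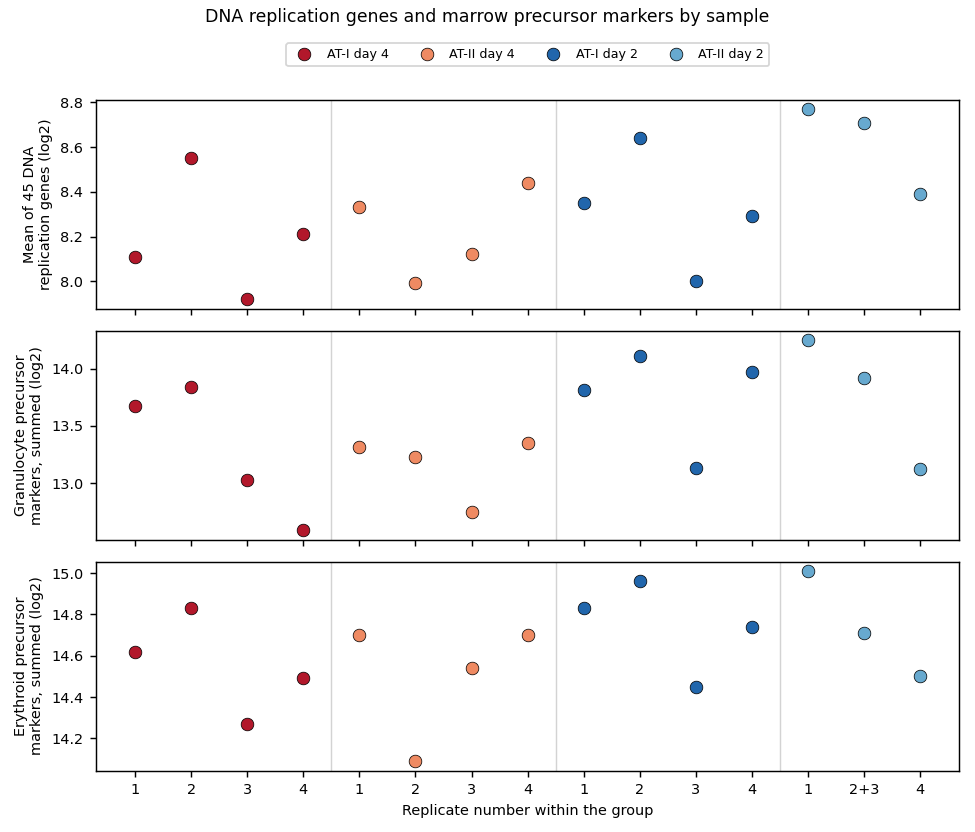
Mean deposited log2 value of the 45 DNA replication genes (top) and log2 of the summed levels of the granulocyte precursor (middle) and erythroid precursor markers (bottom) in each sample, with both surfaces at day 4 left of both surfaces at day 2; axes do not start at 0. The mean of the 45 genes runs from 7.92 to 8.77, and in each group its highest sample is also the highest in the middle panel. At day 4 its lowest sample is not the lowest in the middle panel on either surface. In each group its lowest sample is the lowest in the bottom panel.

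Other genes of the same pathway were read from lists chosen by function. Between the days on AT-II, 59.7% of all genes and 56.2% of genes of mean 6 or more were lower at day 4. Of the other fork and initiation genes, such as the checkpoint clamp loader gene Rad17 and the histone chaperone gene Supt16h, 26 of 28 were measured, all 26 were lower at day 4 by mean on AT-II (median -0.32) and none was called. Of the other nucleotide supply genes, 14 of 16 measured were lower by mean (median -0.33) and 1 was called lower. That gene was Umps, which completes the synthesis of UMP. Umps measured 8.15, 8.45, 7.96 and 8.45 on AT-I and 8.20, 8.47, 8.05 and 8.40 on AT-II at day 4, and 8.59, 8.68, 8.65 and 8.32 on AT-I and 8.81, 8.95 and 8.78 on AT-II at day 2. Umps was lower at day 4 in all AT-II samples, fell by 0.57 ± 0.15 (SE) on the log2 scale and had an adjusted p of 0.0498 in limma. The call was lost when any of 11 of the 15 samples was left out (adjusted p = 0.0525 to 0.22). These were every AT-II day 2 sample, AT-II day 4 replicates 1, 3 and 4, AT-I day 2 replicates 1, 2 and 3 and AT-I day 4 replicates 1 and 4. The chromatin genes that work behind the fork, such as Chaf1a and Hells, were lower by mean in 9 of 9 (median -0.29), and the E2F and G1/S regulators in 18 of 20 (median -0.28), with none called. S phase checkpoint and fork repair genes were lower by mean in 12 of 14 (median -0.31) and mitotic genes in 24 of 24 (median -0.43), with none called. The CDK inhibitors, which hold cells out of S phase, were lower by mean in 3 of 6, with a median of 0.11 and none called. Between the days on AT-I the median was -0.09 for other fork genes (18 of 26 lower by mean). For nucleotide supply it was -0.02 (9 of 16) and for chromatin genes -0.05 (5 of 9). E2F and G1/S regulators gave -0.04 (12 of 20) and checkpoint and repair genes 0.07 (6 of 14). Mitotic genes gave -0.03 (14 of 24) and CDK inhibitors -0.02 (3 of 6), and no list gene was called. On AT-I 55.2% of all genes and 37% of genes of mean 6 or more were lower.

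Between the surfaces at day 2 most genes of these lists were lower by mean on AT-I, as were 85.5% of all genes of mean 6 or more, whose median was -0.24. None of the list genes passed the adjusted p in limma. The medians were -0.32 for other fork genes (26 of 26 lower by mean), -0.29 for nucleotide supply (16 of 16), -0.31 for chromatin (9 of 9), -0.35 for E2F and G1/S regulators (20 of 20), -0.35 for checkpoint and repair genes (13 of 14), -0.36 for mitotic genes (24 of 24) and -0.11 for CDK inhibitors (5 of 6). Taking the gene of smallest p from each of these lists other than the CDK inhibitors gave Rad17 (-0.55 ± 0.16, SE), Dctd, which deaminates dCMP (-0.46 ± 0.13), the S phase checkpoint kinase gene Chek1 (-0.60 ± 0.19), E2f6 (-0.38 ± 0.12), the kinetochore motor gene Cenpe (-0.82 ± 0.28) and Chaf1a (-0.52 ± 0.24). Brca2, which protects stalled forks, was the checkpoint and repair gene with the opposite sign. Brca2 measured 11.05, 10.43, 11.61 and 10.81 on AT-I and 10.14, 10.64, 10.76 and 10.20 on AT-II at day 4, and 11.75, 10.78, 11.40 and 10.81 on AT-I and 10.68, 9.96 and 10.40 on AT-II at day 2. All AT-I samples of day 2 lay above all AT-II samples of day 2, with a difference of 0.84 ± 0.29 and an adjusted p of 0.131 in limma. The row was brighter in every sample than that of Brca1, which ran from 6.80 to 8.14. Whether it reads Brca2 alone was not tested. Among the CDK inhibitors, Cdkn1b differed by -0.21 ± 0.20 and Cdkn1a by 0.25 ± 0.43, well within the spread of the samples.

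Genes with an E2F motif in the promoter window were also set beside genes without one. On AT-II the median difference between the days was -0.48 for the 19 measured genes with the motif and -0.44 for the 19 measured genes whose window lacked it. Apart from the replication genes, 468 promoters of measured genes held the motif, and some genes have several promoters, so these belong to 441 genes. Over those 441 genes the median was -0.08, with 287 below 0.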

How the data were processed

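RNA of implant-adherent cells was hybridised to 16 arrays, per the labels' protocols. The authors deposited 1 value per array row, which is read here as log2 because the submitters' processing notes name RMA (in Affymetrix Expression Console) and RMA works in log2. No version, filter or build of that step is stated in the labels. RMA can understate differences of dim rows.

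Rows were named through the platform annotation, and 18460 of the 18644 rows naming 1 gene were found in the GRCr8 gene table. The brightest row per gene gave 17245 genes. The 962 rows with several gene names and the 9608 with no name were not used. All genes were tested two-sided with lmFit and eBayes of limma 3.58.1 (R 4.3.3) on 4 group means over 15 samples, with 11 residual and 4.44 prior degrees of freedom, and called at a p of 0.05 after Benjamini-Hochberg adjustment. The number of arrays limits the precision. The p-values set a difference of group means against the spread between samples, with any pairing within a rat ignored. Groups came from sample titles. The 47 genes, the other lists, the markers and the averaging of the pair of arrays were chosen with earlier results of these data known. Values in every sample are given for up to 3 genes per role with the smallest p between the surfaces at day 2, and for the extremes of other comparisons. Gins2 and Pcna were added after their values were seen. From other lists, genes of smallest p in the same comparison are named, and Umps because it was called. Same-numbered samples of the surfaces did not all deviate together, with r from -0.34 to 0.64, which did not settle whether they are pairs. As labels did not tie numbers to rats, the numbers were not taken as pairs. Promoter sequences are RefSeq's (GRCr8). The fit was also run on 5 simulated sets with 200 genes changed in each and noise drawn separately for each gene. The replication genes rise and fall together, so those runs give no error rate for them. Alternatives numbered 25, among them 15 that left out 1 sample each. Python 3.11.15, pandas 2.3.3, numpy 2.4.6, scipy 1.17.1 and matplotlib 3.10.9 were used besides.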

Additional observations from a re-analysis of the deposited data

Results flagged for a closer look

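In 6 of 135 sets of 4 samples (45 genes in 3 groups), 1 sample stood apart from the other 3 by more than Dixon's limit for 4 samples at 95% confidence, where chance gives about 1 in 20. Of the 6, 4 were in AT-I day 2 replicate 2. There Gins1 measured 7.33, against 6.75 to 6.81 in the other 3 samples. Rfc3 measured 7.66, against 7.10 to 7.15. Rfc4 measured 8.85, against 8.01 to 8.13. Rfc5 measured 8.35, against 7.86 to 7.93. Of these genes, 3 encode subunits of the clamp loader, and the same sample was the highest of its group in 38 of the 45 genes. The Rpa2 value of 8.07 in AT-I day 4 replicate 2 stood above 7.72 to 7.77 in the rest of the group. The Rfc2 value of 8.35 in AT-II day 4 replicate 4 stood above 8.08 to 8.12. AT-II day 2, with 3 samples, was not examined in this way.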

How the results depend on the processing

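In 1125 values per surface comparison and 1080 per other comparison (45 genes, each setting), the sign changed in 50 between the surfaces at day 2, 127 between the surfaces at day 4, 56 between the days on AT-I, 8 between the days on AT-II and 41 in the difference between the courses. None of the values that passed the test had changed sign. The median of the 45 genes, with 1 sample left out, ran from -0.43 to -0.20 between the surfaces at day 2, from -0.17 to 0.10 at day 4, from -0.27 to -0.03 between the days on AT-I, from -0.57 to -0.38 on AT-II and from 0.14 to 0.42 for the difference between the courses. Over the other settings it ran, in the same order, from -0.32 to 0.10, from -0.08 to 0.17, from -0.45 to -0.16, from -0.57 to -0.41 and from 0.06 to 0.32.

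Between the surfaces at day 2, replication genes called numbered 3 with 16 arrays counted separately, 4 with array weights, and, with 16 arrays and a replicate block, 3, or 2 with the block within each day. All genes called, in both directions and of 17245 tested, numbered 2193 with 16 arrays, 1 with quantile normalization repeated and 3713 with array weights. They numbered 3693 with the replicate block and 3823 with the block within each day. With 1 sample left out they numbered 0 to 711, 711 being without AT-I day 2 replicate 2. The share of all genes called lower was 6.68% with 16 arrays and 11.6% with array weights. It is not given for the block settings, so the 3 and 2 calls there are not read as particular to the replication genes. The median of the replication genes was -0.06 with quantile normalization repeated and 0.10 with the interquartile range of each array in the fit (the spread covariate).

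Between the days on AT-I, replication genes called numbered 5 with each array centred on its median, 3 with quantile normalization repeated and 8 with the spread covariate, where their median was -0.45. All genes called numbered 1060 with only the compared groups in the fit, 1314 with the spread covariate and 1158 (without AT-I day 4 replicate 4) to 2954 with 1 sample left out.

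Between the days on AT-II, replication genes called numbered 3 with 16 arrays, 7 with centring, 4 with quantile normalization repeated, 2 with dim genes left out, 1 with only the compared groups, 10 with array weights, 11 with the spread covariate and 6 with 16 arrays and the replicate block. With 1 sample left out they numbered 0 to 2, the 2 without AT-I day 2 replicate 2, and 1 when AT-II day 2 replicate 4 was the one left out. All genes called, in both directions, numbered 1228 with array weights, 919 with the replicate block and 223 to 694 with 1 sample left out. They numbered 294 without AT-II day 2 replicates 2 and 3, which counted as 1 sample. The share called lower is not given for the replicate block, so the 6 calls there have no such share beside them. The cause of these changes was not tested. Centring moved the median of all genes between the days to -0.21 on AT-I and -0.16 on AT-II, and between the surfaces at day 2 to 0.05. The pairing check was mixed. For the samples numbered 1 to 4 in turn, r between the surfaces was 0.64, 0.51, -0.26 and 0.15 at day 2. At day 4 it was 0.13, -0.34, 0.47 and 0.20. At day 2, AT-I replicate 1 had r of -0.33, -0.32 and -0.37 with the AT-II samples of other numbers, while AT-I replicate 2 had 0.53 with AT-II replicate 3. The check therefore did not settle whether same-numbered samples are pairs.

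An E2F motif stood in 17 of 40 promoters (42.5%) from 150 bases before to 50 after the start, against 2.33% for measured genes. The spread between 3 or 4 samples a group and the signal of dim rows limit what can be called.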

Other observations

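Fen1, Rpa3 and Rrm2 each had a second, dimmer row named for them that the tests did not use. The difference of group means between the days on AT-II was -0.31 in the second row of Fen1, against -0.43 in the row used, -0.12 against -0.06 for Rpa3, and -0.57 against -0.61 for Rrm2. Between the days on AT-I it was -0.43 against -0.19 for Fen1, 0.15 against 0.02 for Rpa3 and -0.37 against -0.42 for Rrm2. Between the surfaces at day 2 the second row of Fen1 had the other sign, 0.03 against -0.31. There Rpa3 gave 0.04 against 0.15, and Rrm2 -0.20 in both rows. Mcm7 was also named in 1 row that names several genes, which was left out.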
